A study of Mus musculus with 20 samples.

Results

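The genes described here are 10 genes of the smooth muscle contractile apparatus, measured in mouse embryonic fibroblasts with and without the transcription factor E2F4. They were taken by name, with earlier results of these data known. They comprised the actins Acta1, Acta2 and Actg2, the actin-binding genes Tagln, Cnn1, Cald1, Tpm1 and Tpm2, and the myosin genes Myl9 and Mylk. Every probe set annotated to 1 of these genes, under its current or former symbol, was included. This gave 20 probe sets of the 22626 on the array that were not controls, and 10 of 12393 measured genes.

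Mouse embryonic fibroblasts (MEFs) are primary connective tissue cells grown from embryos, here taken at 13.5 days post coitum. RNA was measured on 1-colour Affymetrix arrays, 1 per culture, in 10 cultures from 5 E2F4 null embryos (2 cultures each) and 10 cultures from 3 wild type embryos (3, 3 and 4 cultures). E2F4 is a member of the E2F family known mainly as a repressor of cell cycle genes together with the pocket proteins. The labels do not say which portion of E2f4 was removed, and give no sex, litter, strain, passage or processing batch. The embryo was taken as the replicate because the submitters' design describes cultures from 3 and 5 embryos. The sample titles hold 2 numbers, which were read as embryo and culture, and embryos are numbered by the first.

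Smooth muscle cells and myofibroblasts build stress fibres from actin filaments, tropomyosin and non-muscle or smooth muscle myosin, and the genes of this apparatus are known targets of serum response factor (SRF), which binds a DNA element called the CArG box. The partners of SRF are the myocardin-related factors, which enter the nucleus when actin monomers are drawn into filaments. Cultured fibroblasts are known to raise smooth muscle actin and its companions under tension and TGF-beta, and Acta2 is the usual marker of the myofibroblast.

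The promoters are shown because members that moved together can be compared at the element they are known for. RefSeq (GRCm38.p6) gave 9 promoters for 8 of the 10 genes, with 2 for Cald1, and the 250 bases before each start were searched on both strands. An exact CArG box stood in 2 of the 9 promoters (22.2%), against 482 of 32851 mouse promoters (1.47%). These were Acta1, on the minus strand of chr8:123894776-123895025, with the box 73 bases before the start, and Myl9, on the plus strand of chr2:156775214-156775463, with the box 161 bases before the start. The letters CATTCC, the MCAT element, stood in 5 of the 9 promoters (55.6%), against 12.6% of all promoters. The promoter of Acta2, on the minus strand of chr19:34255374-34255623, held CATTCC and no exact CArG box in this window. In the sequences the CArG box is in capitals.
Acta1: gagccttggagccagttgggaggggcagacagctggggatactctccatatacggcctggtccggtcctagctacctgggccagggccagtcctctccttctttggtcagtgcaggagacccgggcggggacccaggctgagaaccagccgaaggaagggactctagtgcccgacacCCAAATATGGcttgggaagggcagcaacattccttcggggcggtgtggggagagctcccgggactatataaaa
Myl9: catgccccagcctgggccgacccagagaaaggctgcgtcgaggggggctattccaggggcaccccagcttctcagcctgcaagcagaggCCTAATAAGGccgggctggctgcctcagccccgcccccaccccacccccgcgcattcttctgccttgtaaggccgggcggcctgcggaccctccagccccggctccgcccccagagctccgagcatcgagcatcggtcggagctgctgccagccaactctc
Acta2: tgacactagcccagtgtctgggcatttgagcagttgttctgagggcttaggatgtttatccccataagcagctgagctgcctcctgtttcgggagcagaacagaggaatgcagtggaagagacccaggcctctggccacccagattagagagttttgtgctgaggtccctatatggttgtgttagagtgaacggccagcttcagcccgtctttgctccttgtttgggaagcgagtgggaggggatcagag
A match of letters is a description of the sequence, and a missing match says only that these letters were not in the window.

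The deposited signals had a 2% trimmed mean of 500.2 on every array. Arrays of the same embryo correlated at 0.985 to 0.99 over log2 values, and arrays of different embryos at 0.971 to 0.988. The targeted gene E2f4 (probe set 1451480_at) read 157, 167, 156, 155 and 197 in null embryos 1 to 5, against 209, 212 and 222 in wild type embryos 1 to 3. The groups did not overlap, and the difference of -0.35 (SE 0.10) on the log2 scale did not pass the test across all genes (limma adjusted p = 0.36). Of the 16 fibroblast markers listed, all 16 were among the genes kept after a filter on low signal, which dropped those under the 40th percentile and left 7436 genes.

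Acta2 (probe set 1416454_s_at), the smooth muscle alpha actin, averaged 19288 ± 2652 in E2F4 null embryos and 19386 ± 4328 in wild type embryos (SD, n = 5 and 3) and differed from embryo to embryo. Its signal was 21502, 22377, 17737, 18866 and 15957 in E2F4 null embryos 1 to 5, against 17177, 24372 and 16607 in wild type embryos 1 to 3. Embryos 1 and 2 of the null group and embryo 2 of the wild type group were high, and the groups overlapped. The difference, E2F4 null minus wild type, was 0.00 (SE 0.15, 95% interval -0.33 to 0.34) in log2(signal + 16), with a limma adjusted p of 0.997. This probe set stood at the 99.9th percentile of mean signal, and whether the array reads differences in full at such high signal was not tested. The other Acta2 probe set, 1456658_at, had a mean signal of 88.6 and a difference of -0.54 (SE 0.29, limma adjusted p = 0.635 over probe sets).

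Acta1 (1427735_a_at), the skeletal muscle alpha actin, had the widest range of the 10 genes. It averaged 1002 ± 1260.4 in null embryos and 1616 ± 1955 in wild type embryos (SD, n = 5 and 3). Its embryo means were 1149, 3143, 270.3, 235 and 211 in the null group, against 608, 3870 and 370 in the wild type group. The same 3 embryos were high, null 3, null 4, null 5 and wild type 3 were low, and wild type 1 lay between. Cultures of an embryo stood close together. Those of null embryo 2 read 3239.9 and 3046 and those of wild type embryo 2 read 4128, 3579.8 and 3901, while null embryo 5 read 173 and 249. The highest and lowest embryos were 17.3-fold apart, and the genotypes differed by -0.78 (SE 1.02, interval -3.08 to 1.52, adjusted p = 0.86).

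Actg2 (1422340_a_at), the enteric smooth muscle gamma actin, had the same 3 embryos at the top in another order, and wild type 3 was its lowest embryo. It read 3746, 5198, 2482, 2038 and 1821 in null embryos 1 to 5, against 2453, 4710.1 and 1374 in the wild type embryos. The highest embryo was null 2, and the range between embryos was 3.77-fold. The genotypes overlapped and differed by 0.17 (SE 0.43, interval -0.81 to 1.15, adjusted p = 0.928). The actins are close paralogs in sequence, and whether RNA of one bound the probes of another was not tested.

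Tagln (1423505_at), also known as SM22 alpha, encodes an actin-bundling protein of stress fibres. Its signals were 12907, 13739, 10007, 10607 and 9869 in null embryos 1 to 5, against 10717, 14238 and 9894 in the wild type embryos. The range was narrower, 1.44-fold, but the order of embryos was the same as for Acta1 at the top, and the genotype difference was -0.02 (SE 0.15, adjusted p = 0.981).

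Cnn1 (1417917_at), calponin 1, binds actin and restrains the myosin ATPase. It read 2367, 3733, 1066, 984 and 909 in null embryos 1 to 5, against 1484, 4469 and 1019 in the wild type embryos, a range of 4.85-fold. Its difference was -0.30 (SE 0.58, interval -1.61 to 1.01, adjusted p = 0.904). Cald1 (1424769_s_at), caldesmon, which also restrains actomyosin and is bound to the thin filament, read 14897, 15619.9, 12554, 12456 and 12551 in the null embryos, against 13065, 15892 and 12281 in the wild type embryos. The highest and lowest of these were 1.30-fold apart, the narrowest range among the probe sets used for the 10 genes. The other Cald1 probe sets, 1424770_at and 1424768_at, spanned 1.63-fold and 1.49-fold. By 1424769_s_at the genotypes differed by -0.01 (SE 0.11, adjusted p = 0.985).

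The tropomyosins Tpm1 (1423721_at) and Tpm2 (1419738_a_at) lie along the actin filament and govern which proteins reach it. Tpm1 read 13479, 13271, 9934, 10282 and 9641 in null embryos 1 to 5, against 10484, 13534 and 10579 in the wild type embryos. Tpm2 read 11048, 12629, 8794, 8725 and 8536 in the null embryos, against 9669, 13169 and 9589 in the wild type embryos. Null 1, null 2 and wild type 2 again stood above the other 5 embryos, and the differences were -0.03 (SE 0.14, adjusted p = 0.964) for Tpm1 and -0.12 (SE 0.16, adjusted p = 0.859) for Tpm2.

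Of the myosin genes, Myl9 (1452670_at) encodes a regulatory light chain and Mylk (1425506_at) the kinase that phosphorylates it. Myl9 read 6593, 9195, 5083, 5279 and 4430.0 in null embryos 1 to 5, against 6257, 10112 and 4421 in the wild type embryos, with a genotype difference of -0.15 (SE 0.29, adjusted p = 0.908). Mylk read 199, 320.4, 182, 208 and 227 in the null embryos, against 219.7, 272 and 147 in the wild type embryos, with a difference of 0.10 (SE 0.21, adjusted p = 0.915). Mylk was the exception in its order: null 1 lay below null 4 and null 5 for it. In 9 of the 10 genes the 3 highest embryos were null 1, null 2 and wild type 2.

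**Figure D1:**
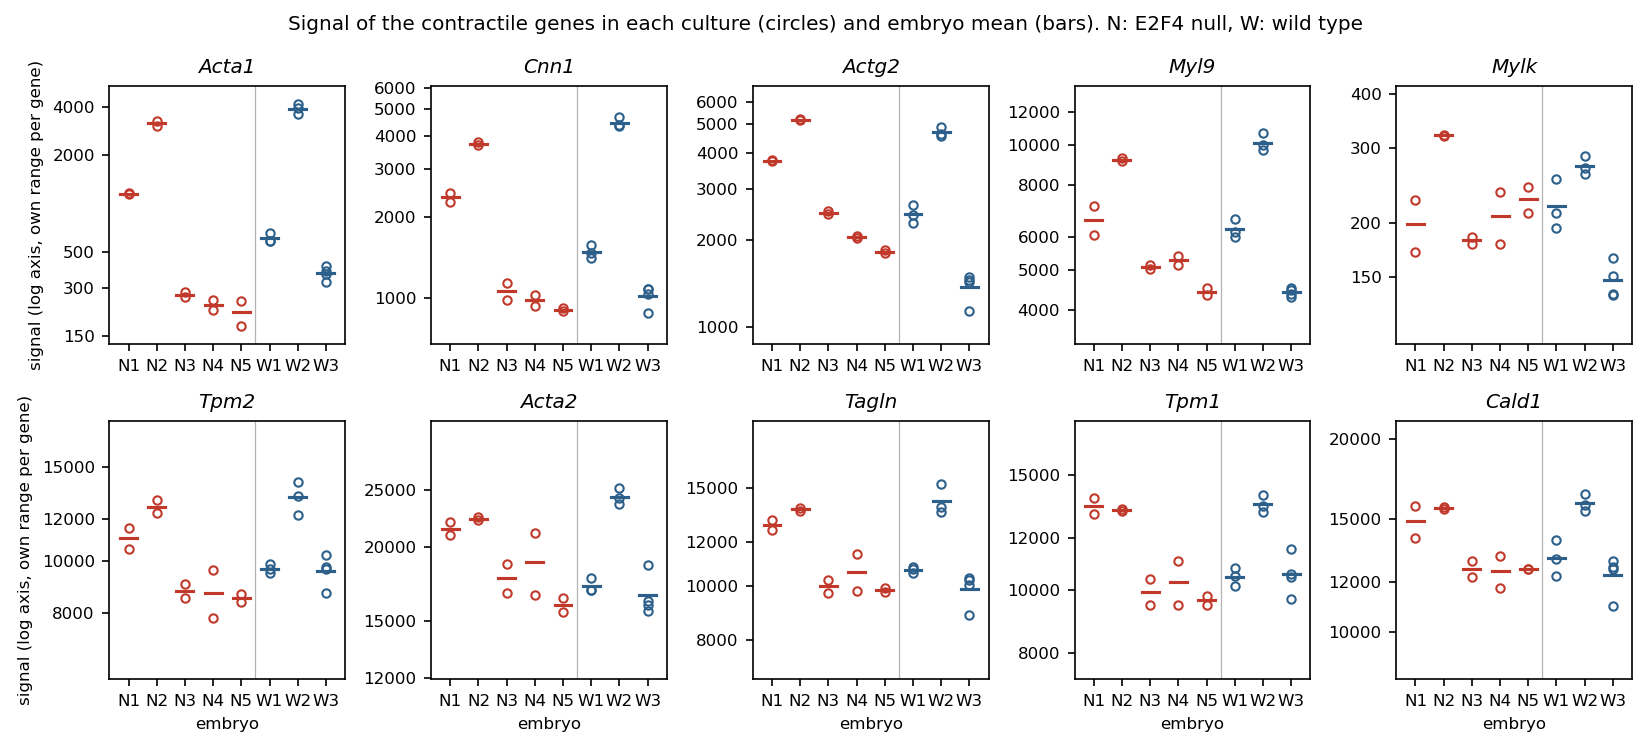
Signal (log axis, own range per gene) of each contractile gene in every culture (circles) with the embryo mean (bars), E2F4 null embryos N1 to N5 on the left and wild type embryos W1 to W3 on the right of each panel. N1, N2 and W2 stand above the other embryos in 9 of the 10 genes, and the genotypes overlap in all 10.

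No contractile gene was called between genotypes. By limma, 0 of the 10 genes had an adjusted p under 0.05, against 1 of 7436 genes overall (0.0134%), and 0 of the 10 had an unadjusted p under 0.05, against 652 genes overall (8.77%). Differences lay below 0 for 7 of 10 members, against 50.8% of all genes, with a median of -0.03 for the members and -0.00 for all genes. After quantile normalization 8 of 10 lay below 0, and after median centring 6. With the G2/M score (defined below) as a covariate, or the embryo number as a replicate block, all 10 lay above 0. The groups overlapped for all 10 genes and all 20 probe sets, while 6.7% of all genes had groups that did not overlap. The intervals were wide for the genes with the largest embryo-to-embryo range, and those of Acta1 and Cnn1 held differences of 2-fold either way. Direction depended on single embryos: without wild type embryo 2, all 10 differences lay above 0 (Acta1 0.21, Cnn1 0.32), and without null embryo 2 or wild type embryo 3, all 10 lay below 0, with none called in any of these fits. In these bulk samples, fewer cells of a type and less RNA per cell cannot be told apart.

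**Figure D2:**
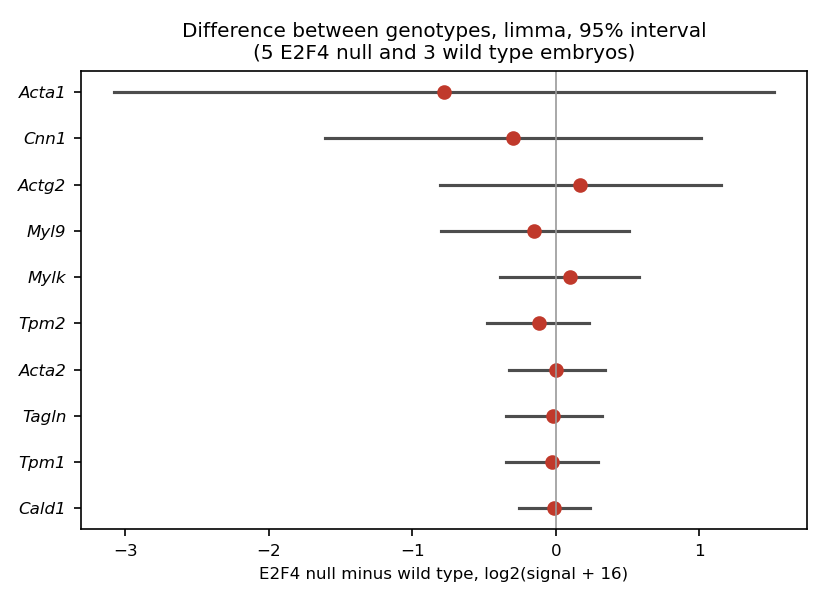
Difference between E2F4 null and wild type embryos in log2(signal + 16) for each contractile gene (dots) with its 95% interval (lines), from limma on 5 and 3 embryo means. Every interval crosses 0, and Acta1 has the widest, from -3.08 to 1.52.

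Embryos of the same genotype differed in all 10 genes. The limma F test over cultures called all 10 among the E2F4 null embryos (27.6% of all genes were called) and all 10 among the wild type embryos (51.3% of all genes). The adjusted p of Acta1 was 5.3e-15 among the null embryos and 7.4e-16 among the wild type embryos. The least clear were Mylk among the null embryos (adjusted p = 0.00509) and Cald1 among the wild type embryos (0.00014). The standard deviation between embryos of a genotype was 1.71 in log2 for Acta1, the fifth largest of the 7436 genes, 0.97 for Cnn1 (rank 28), 0.73 for Actg2 (rank 62) and 0.48 for Myl9 (rank 251). It was 0.17 for Cald1 (rank 2809), and the median over all genes was 0.14. Cultures of an embryo varied by 0.07 to 0.15, against a median of 0.12 over all genes. Differences between embryos made up 83.9 to 99.5% of the variance of the members, against a median of 62.9% over all genes. Among cultures of a null embryo the calls rested on 2 cultures each. Leaving out the first or second culture number leaves 1 culture per null embryo, and not all 10 calls were kept. The spread between cultures then came from wild type embryos only, so these fits do not check the calls against null cultures.

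The array's own control probe sets for beta-actin and Gapdh, which belong to genes every cell uses, moved with the contractile genes as well. The beta-actin 3′ control read 24422, 25414, 20723, 23106 and 20387 in null embryos 1 to 5, against 20111, 26395 and 22219 in the wild type embryos, 1.31-fold between the extremes. Across the 8 embryos it correlated at 0.83 with the mean of the contractile genes, and the Gapdh 3′ control at 0.74, as descriptions over embryos that share their arrays. The CreX hybridisation control correlated with that mean at 0.38 and spanned 1.48-fold between embryos. The beta-actin gene Actb is itself in the wider actomyosin list below. Its slope on the G2/M score was -0.51 (limma adjusted p = 0.043), so its control is not separate from the contractile apparatus. Quantile normalization of the arrays left the range of Acta1 at 17.0-fold, of Cnn1 at 4.75-fold and of Actg2 at 3.71-fold, while that of Acta2 was 1.31-fold, against 1.53-fold as deposited, and that of Cald1 was 1.20-fold, against 1.30-fold. The ranges of Acta2, Tagln, Tpm1, Tpm2 and Cald1 were 1.30- to 1.54-fold as deposited and 1.20- to 1.41-fold after quantile normalization, beside 1.31-fold for the beta-actin control. The probe sets used for these genes stood at the 99.4th to 99.9th percentile of mean signal. Whether the array reads differences in full at such signals was not tested. The ratio of 3′ to 5′ beta-actin signal, a sign of RNA integrity, was 1.11 to 1.20 in null embryos and 1.13 to 1.16 in wild type embryos.

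The contractile genes moved together from embryo to embryo. Over the 8 embryos, centred within genotype, the 45 pairs of members correlated at 0.563 to 0.996, with a median of 0.95. Of these pairs, 34 lay above 0.9, against 1.402% of all pairs of genes. Acta1 and Cnn1 were the closest pair, and Tpm1 and Mylk the most distant (0.56). After quantile normalization the median was 0.92 and 27 pairs lay above 0.9. Between cultures of the same embryo the co-movement was weak: the median over the 45 pairs was 0.138, with 1 pair above 0.9. The 8 points share 2 genotypes and the same arrays, and these correlations are descriptions.

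The first principal component of the embryo means, centred within genotype and computed over 7398 genes without the contractile genes and the wider actomyosin list, held 57.7% of the variance, against 14.9% for the second. Embryos stood on it at -0.33, -0.43, 0.19, 0.26 and 0.30 for null 1 to 5 and at 0.11, -0.55 and 0.44 for wild type 1 to 3. The members correlated with it at -0.99 for Cnn1 and Cald1, -0.98 for Actg2 and Tagln, -0.97 for Acta1, -0.96 for Myl9 and Tpm2, -0.95 for Acta2, -0.94 for Tpm1 and -0.75 for Mylk. All 10 lay below -0.7, against 18.8% of all genes, a description of members chosen with earlier results of these data known. The 49 G2/M and mitosis genes that were kept had a median correlation of 0.936 with the same component, which their own values help to define.

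**Figure D3:**
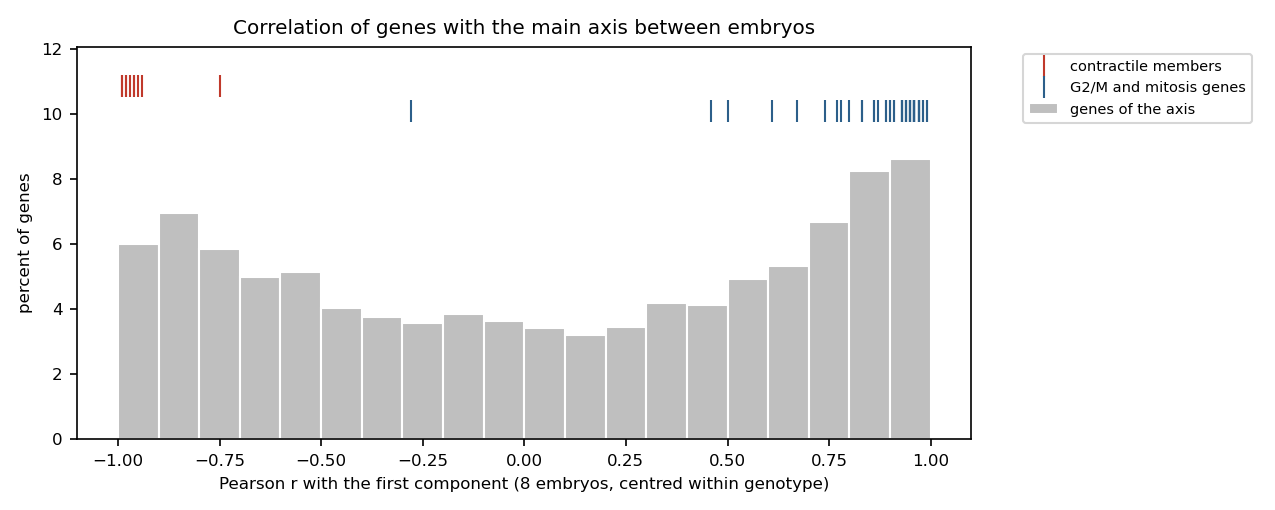
Histogram of the Pearson correlation of each gene with the first principal component between embryos (x axis), as a percent of the genes it was computed over (y axis). Red ticks mark the 10 contractile genes, from -0.99 to -0.75, and blue ticks the G2/M and mitosis genes, which have a median of 0.936 and a lowest value of -0.281.

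The relation to proliferation was measured with a G2/M score, the mean log2 deviation of 49 of the 52 listed mitosis genes from the mean of all embryos. The score was -0.13, -0.11, 0.13, 0.19 and 0.21 in null embryos 1 to 5, against -0.03, -0.47 and 0.22 in wild type embryos 1 to 3. Centred within genotype, the score correlated at 0.979 with the first principal component. A relation to the score therefore cannot be told apart from a relation to that component in these embryos. In a limma model with genotype, 9 of the 10 contractile genes had a lower signal at a higher score (adjusted p under 0.05), against 11.2% of all genes called lower, 13.8% called higher and 24.9% called in all. The members were chosen with earlier results of these data known, so setting them beside all genes is a description. The slope was -6.38 (SE 1.00, adjusted p = 0.00284) log2 units of Acta1 per unit of score, -3.76 (SE 0.46, adjusted p = 0.00101) for Cnn1, and -2.85 (SE 0.31, adjusted p = 0.000666) for Actg2. The score spanned less than 1 unit, so these slopes describe the range of embryos measured.

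The other called slopes were -1.84 for Myl9 (SE 0.26), -0.93 each for Acta2, Tagln and Tpm2, -0.82 for Tpm1 and -0.67 for Cald1, with adjusted p between 0.00167 and 0.0104. Mylk was not called, with a slope of -1.01 (SE 0.36, adjusted p = 0.0673), and it was called without null embryo 1 (-1.27, adjusted p = 0.0204). With quantile normalization, and without the culture of null embryo 4 and the culture of wild type embryo 3 whose beta-actin controls were high, 9 of 10 were called. Without wild type embryo 2 and null embryo 1, the 2 embryos farthest from the median score, which also had the lowest scores, 4 were called, namely Acta1, Actg2, Cnn1 and Myl9, and the other slopes lay between -1.25 and -0.84 for the 5 that were called before, with adjusted p between 0.052 and 0.119.

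Pearson correlations of signal with score over the 8 embryos were -0.93 for Cnn1, -0.92 for Myl9, -0.91 for Acta1, -0.90 for Tagln and Cald1, -0.89 for Tpm2, -0.87 for Acta2, -0.85 for Actg2, -0.84 for Tpm1 and -0.62 for Mylk. By exact permutation of the 8 embryos, adjusted over all 7436 genes, p was 0.0175 to 0.0383 for the first 9 and 0.241 for Mylk. By the same test 1227 genes had an adjusted p under 0.05 (16.5% of all genes), 7.1% with r below 0. Spearman's rank correlation was -0.50 for Mylk and -0.74 to -0.95 for the others, and after adjustment only Myl9 had a rank p under 0.05 (0.0393). Without the 2 embryos farthest from the median score, r over 6 embryos stayed between -0.70 for Acta2 and -0.94 for Myl9.

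**Figure D4:**
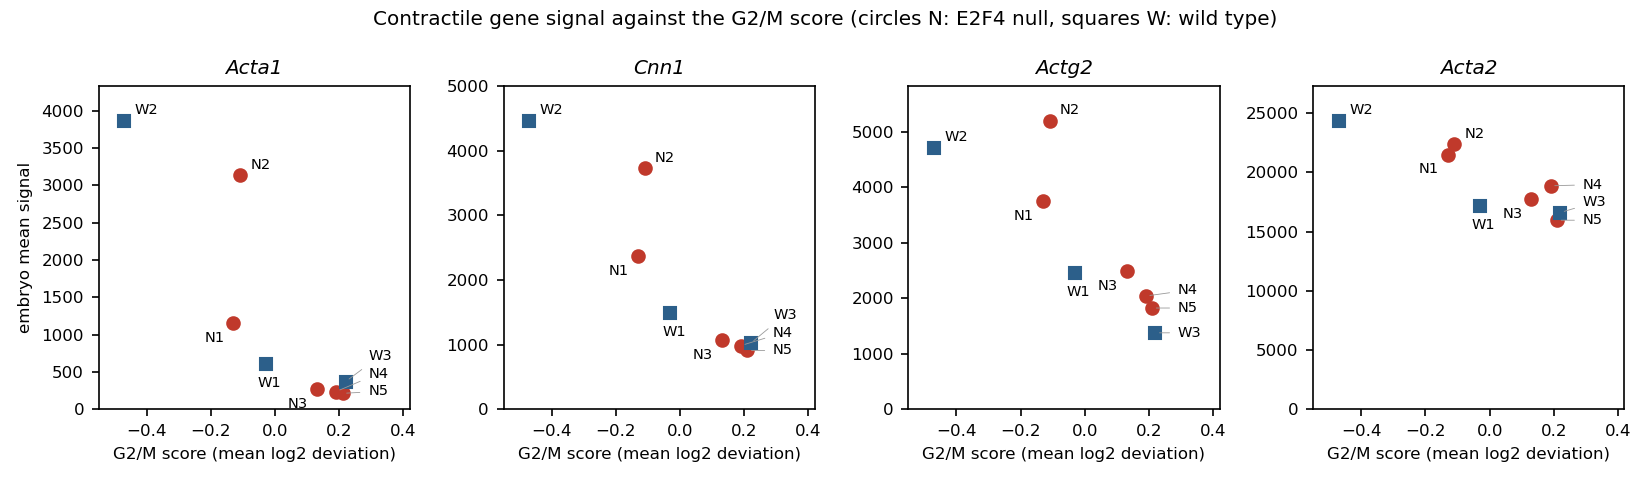
Embryo mean signal (y axis, from 0) against the G2/M score (x axis, mean log2 deviation) for Acta1, Cnn1, Actg2 and Acta2, with E2F4 null embryos as circles (N) and wild type embryos as squares (W). For Acta1 and Cnn1 the embryos with the highest scores, N3, N4, N5 and W3, have the lowest signals, and W2 has the lowest score.

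Probe sets of the same gene did not always follow this pattern. Of the 20, 19 passed the filter (Mylk 1425504_at, with a mean signal of 14.9, did not), and 15 correlated below -0.7 with the main component. Among those that did not were Tpm1 1456623_at (-0.14), Tpm2 1449577_x_at (-0.18) and 1419739_at (-0.43), Acta2 1456658_at (-0.59) and Mylk 1425505_at (-0.61). Tpm1 1456623_at read 1029, 996, 892, 762 and 914 in null embryos 1 to 5, against 1550.4, 1013 and 1059 in the wild type embryos. Wild type embryo 1 was the highest, the groups overlapped slightly, and the difference of -0.37 (SE 0.15) had an unadjusted p of 0.0348 and an adjusted p of 0.514 over the 12228 probe sets tested, of which 0 were called (0%). Probe sets for one gene can bind different transcripts, and which transcript each of these reports is not settled by the files.

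Of the wider actomyosin apparatus, 28 of the 33 listed genes were kept. Between genotypes 0 of them were called, with 18 below 0 and 10 above and a median of -0.05, and the smallest unadjusted p belonged to Myh9, the non-muscle myosin heavy chain (0.30, adjusted p = 0.395), followed by Myl6, an essential light chain (-0.23, adjusted p = 0.593). Against the G2/M score, 13 of the 28 were called lower and 0 higher, beside 11.2% lower and 13.8% higher over all genes. Those named next were chosen after their values were seen. Des, desmin, an intermediate filament protein of muscle, had a slope of -2.58 (adjusted p = 0.000548), Fhl1, a LIM protein of muscle, -1.99, Actn1, alpha-actinin 1, which crosslinks actin filaments, -0.90, and Lpp, a focal adhesion protein, -0.80.

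Markers of other cell types were read beside these results. Of 24 skeletal and cardiac muscle markers on the array, 1 was kept (Tnnt2, cardiac troponin T), with signals of 284, 178, 82.0, 77.9 and 48.2 in null embryos 1 to 5, against 107, 118 and 49.4 in the wild type embryos. Tnnt2 correlated at 0.75 with the mean of the contractile genes and at -0.83 with the main component over the 8 embryos, and its slope on the score was -2.55 (adjusted p = 0.0315). Its highest embryo was null 1, and that of Acta1 was wild type 2. Myod1, Myog, Ckm and Actc1 were under the filter. Actc1 read 179, 112, 55.8, 44.5 and 67.9 in null embryos 1 to 5, against 44.5, 62.7 and 42.9 in the wild type embryos. Null 1 and null 2 were its highest embryos, and it was named after its values were seen. Of 10 pericyte and mural markers 4 were kept, with summed signal of 3633 to 4995 in null embryos, against 3117 to 4944 in wild type embryos. On the score, 2 of the 4 were called lower and 0 higher. The slope of Mcam, an adhesion protein of pericytes, was -2.23 (adjusted p = 0.00108), and that of the proteoglycan gene Cspg4 was -1.70 (adjusted p = 0.0261). Notch3, a receptor of mural cells, had a slope of -0.42 (adjusted p = 0.536), and Pdgfrb, the PDGF receptor beta, -0.18 (adjusted p = 0.722).

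Endothelial markers kept were 2 of 10 (353 to 597 in null embryos, against 348 to 638 in wild type embryos), epithelial markers 2 of 8 (320 to 665 in null embryos, against 262 to 488 in wild type embryos) and macrophage markers 10 of 12 (1616 to 5080 in null embryos, against 1928 to 3125 in wild type embryos). On the score, Flt1, a VEGF receptor and 1 of the 2 endothelial genes, was called lower (slope -1.62, adjusted p = 0.0205), as was the keratin gene Krt18, 1 of the 2 epithelial genes (slope -2.35, adjusted p = 0.000496). Krt18 correlated at 0.86 and Flt1 at 0.80 with the mean of the contractile genes over the 8 embryos. Of the 10 macrophage genes 0 were called lower and 1 higher. The sums correlated with the mean of the contractile genes at 0.91, 0.68 and -0.16 in that order, and the pericyte sum at 0.56, over 8 embryos. Of the 4 pericyte and mural genes, Mcam correlated with that mean at 0.98 and Cspg4 at 0.86, and Notch3 at 0.18 and Pdgfrb at 0.08. The smooth muscle heavy chain Myh11, a marker of mature smooth muscle, was under the filter, which used the mean over all embryos of both genotypes. The part of these cell types in the contractile signal was not tested.

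The genes most like the members were found by Pearson correlation with the mean of the 10 contractile genes over the 8 embryo means. The closest were Tspan2 (0.995), C1galt1c1 (0.990), Khdrbs3 and Bag2 (0.989 each), Rflnb, Fgd6 and Fgf13 (0.985 each), Arhgef5 (0.983), Pkp2 (0.982) and Selenof (0.981). Tspan2, a tetraspanin, read 417, 599, 277, 260.2 and 247 in null embryos 1 to 5, against 304, 667 and 254 in the wild type embryos. The least alike were Cenpk, a kinetochore gene (-0.996), Add3 (-0.990), Rnf26 (-0.986), Tfdp1, a dimer partner of the E2F family (-0.983), and Ints5 (-0.982). Cenpk read 334, 249, 517, 555 and 564 in the null embryos, against 439.5, 246 and 607 in the wild type embryos, so it was lowest where the contractile genes were highest.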

How the data were processed

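RNA from 20 MEF cultures was measured on 1 array each. Each deposited value is a linear signal intensity of 1 probe set. The submitters' processing notes name MAS5, and the sources used here give neither its scaling target nor its detection calls. All 20 arrays had been scaled to the same trimmed mean before deposit and were not rescaled, which would hide a change shared by all genes. The table held 22690 probe sets, 64 of them controls; 20380 had 1 gene symbol, 691 several and 1555 were not listed in the platform annotation. Symbols were updated through gene identifiers with RefSeq (GRCm38.p6) for 20351.

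Values were converted to log2(signal + 16) and the cultures of an embryo were averaged. Each gene was represented by its probe set with the highest mean. Differences are on this scale, which understates changes of low signals. The filter on low signal kept 7436 of 12393 genes. Genotypes and slopes on the G2/M score were tested with limma 3.58.1 in R 4.3.3 (lmFit, eBayes with trend, two-sided, Benjamini-Hochberg over all genes), and embryos within a genotype with limma's F test over cultures. Correlations with the score used exact permutation of 8 embryos. On simulated data the genotype fit recovered 35 of 65 differences of 0.5 in log2, 63 of 70 of 1 and 65 of 65 of 2. The F test recovered 42 of 200 embryo effects in wild type and 31 of 200 in null embryos, and the slope fit 169 of 200 slopes of 2. The simulation drew embryo effects independently for each gene, whereas in the data 1 component held 57.7% of the variance. The named genes were all members, the 2 genes with the smallest p of each other list where none was called, the 10 most and 5 least similar genes, and E2f4; for the marker lists of other cell types and cell cycle genes, names were limited to those a result turns on. Genes named for their slope on the score, including Des, Fhl1, Actn1 and Lpp, fall outside this rule and were chosen after their values were seen. The result of 1 gene list is not reported here. The members and lists were chosen with earlier results of these data known. The number of embryos limits the precision. Alternatives covered the pseudocount, filter, scaling, probe sets, cultures, blocks, covariates and each embryo left out.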

Additional observations from a re-analysis of the deposited data

How the results depend on the processing

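No contractile gene was called between genotypes under any of the 25 alternatives run. Leaving out 1 embryo in turn moved the difference of Acta1 between -1.45 and 0.21, Acta2 -0.10 and 0.18, Actg2 -0.26 and 0.62, Tagln -0.13 and 0.14, Cnn1 -0.74 and 0.32, Myl9 -0.43 and 0.17, Tpm1 -0.10 and 0.09, Tpm2 -0.21 and 0.03, Cald1 -0.09 and 0.10, and Mylk -0.13 and 0.29. The labels do not say whether embryos of the same number belong together. Deviations of same-numbered embryos correlated at 0.07, 0.63 and 0.45 for numbers 1, 2 and 3, and a shared litter or batch was not tested. Null embryos 4 and 5 have no wild type embryo of the same number, so a block on embryo number compares numbers 1, 2 and 3 only. With the embryo number as a replicate block all 10 differences lay above 0 before rounding. They were 0.06 for Acta1, 0.08 for Tagln, 0.16 for Cnn1, 0.05 for Myl9, 0.08 for Tpm1, 0.00 for Tpm2 and 0.07 for Cald1. For the members above 0 in the main fit they were 0.10 for Acta2, 0.54 for Actg2 and 0.12 for Mylk. With the G2/M score as a covariate, which compares the genotypes at equal score, all 10 also lay above 0. The difference was 0.21 for Acta1, 0.15 for Acta2, 0.61 for Actg2 (limma adjusted p = 0.095), 0.13 for Tagln, 0.28 for Cnn1, 0.14 for Myl9, 0.10 for Tpm1, 0.02 for Tpm2, 0.09 for Cald1 and 0.26 for Mylk. With the G1/S score 6 lay above 0, among them Tagln (0.05), Tpm1 (0.03) and Cald1 (0.04), which lay below 0 in the main fit. Acta2 was -0.03 with quantile normalization, -0.27 as the mean of its probe sets, and -0.01 with cultures 1 and 2 only, with the culture number as a replicate block, and without the 2 arrays with high beta-actin controls (an alternative chosen after seeing the data). Tagln was 0.00 with cultures as independent samples. Cald1 was 0.00 with median centring and with independent cultures, and 0.02 with cultures 1 and 2 only and with the culture number as a replicate block. The block and the covariate change what is compared, and the cause of these changes of sign was not tested further.

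With cultures as independent samples, 1 member probe set was called (836 of 12228 in all), a fit that counts cultures of an embryo as separate samples. Leaving out a culture number kept all 10 genes called between wild type embryos. Between null embryos not all 10 were kept without culture number 1 or 2, which leaves 1 culture per null embryo. Quantile normalization gave 9 between null embryos. Leaving out an embryo gave 9 to 10 genes called on the G2/M score. Without the 2 embryos farthest from the median score 4 were called (635 genes in all, from 6 embryos). No slope changed sign. With 5 and 3 embryos, differences smaller than the spread between embryos were not resolved.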

Other observations

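The fibroblast markers were not uniform along the same order of embryos. Of the 16 kept, 0 were called between genotypes, 5 were called higher and 1 lower at a higher G2/M score, beside 0.0134% of all genes called between genotypes, 13.8% called higher and 11.2% called lower on the score. Lum, lumican, a proteoglycan of collagen matrix, read 202, 133, 917, 1007 and 1408 in null embryos 1 to 5, against 597, 81.8 and 2219.9 in wild type embryos 1 to 3. Its slope was 7.16 (adjusted p = 0.000237 by limma), and its highest and lowest embryos were 22.9-fold apart. Pdgfra, the PDGF receptor alpha, read 197, 339, 908, 1109.6 and 1368 in the null embryos, against 852, 191 and 1199.5 in the wild type embryos, with a slope of 4.78. Dcn (3.12), Col6a1 (1.89) and Prrx1 (1.45) were the other genes that were higher, and Fn1, fibronectin, was lower (-0.78, adjusted p = 0.02). Lum and Pdgfra were low in null 1, null 2 and wild type 2, where Acta1 was high. These genes were chosen after their values were seen.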
